A study of Danio rerio with 16 samples.

Results

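The comparison of excess retinoic acid (RA) with its solvent rests on 8 of the 16 arrays of the series, selected by their titles: 4 from zebrafish embryos given all-trans RA at 0.33 µM and 4 from embryos given dimethyl sulfoxide (DMSO) alone. Both groups were wild-type embryos bred from AB/WIK hybrid parents, stripped of their chorions by enzyme and collected whole at 11 hours post fertilization (hpf), when the first somites form. RA was present from 6.5 hpf, for 4.5 hours, and DMSO at 2% from 5.25 hpf, for 5.75 hours. RA was itself diluted from a stock in DMSO, and no percent of DMSO is recorded for the RA group. Treatment, time of exposure and any difference in the amount of solvent cannot be told apart in this comparison. The other 8 arrays, of embryos given the RA receptor antagonist AGN193109 at 10 or 1 µM, entered the model for the spread between replicates and are otherwise not described. The titles call the 4 samples of a group biological replicates, and the number of embryos in each is not stated in the labels.

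RA is made from vitamin A in cells that carry aldehyde dehydrogenases and is destroyed in cells that carry Cyp26 enzymes, so that embryos at this stage hold RA in the trunk and little of it in the head and the tail tip. It enters the nucleus and binds pairs of RA receptors and retinoid X receptors, which sit on DNA at target genes and exchange corepressors for coactivators when RA is bound. In the vertebrate gastrula the pathway is best known for placing the hindbrain and trunk along the head-to-tail axis through the hox genes, and also for limiting the heart field, setting up the pancreas and shaping the onset of segmentation.

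The 16 arrays had median intensities of 72.8 to 78.3. Across probe sets, RA arrays correlated with each other at r = 0.971 to 0.992 and DMSO arrays likewise at 0.971 to 0.992, while RA arrays correlated with DMSO arrays at 0.947 to 0.978. The first principal component of the 8 arrays held 46.2% of the variance and placed all RA arrays (13.6 to 37.7) on the other side of 0 from all DMSO arrays (-29.4 to -19.1). Markers of tailbud, somites, epidermis, neural plate and yolk layer were above an intensity of 16 on all 8 arrays, and crystallin, insulin and prolactin genes, which belong to later organs, lay at 12.7 or below on all of them. The cleavage-stage gene nanog read 44.8 to 70.0 in the RA arrays, against 77.0 to 141 in the DMSO arrays (log2 difference -0.80 ± 0.26, adjusted p = 0.0972).

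Of the genes measured, about as many rose as fell under RA. Each gene is given by its brightest probe set, and was called when the limma test of RA minus DMSO had a Benjamini-Hochberg adjusted p under 0.05 over all 11843 probe sets tested. Of 7118 genes, 449 were called (6.31%), 227 higher (3.19%) and 222 lower (3.12%). By their fitted log2 differences, 121 of them rose and 133 fell at least 2-fold, and 19 rose and 21 fell at least 8-fold. These counts use the fitted difference also for the 39 called genes whose lower group lay wholly at or under the lower limit given below. For such genes only a bound on the fold holds, and it can be smaller. Among the genes described below, for example, the bound was under 8-fold for stra6, thbs3a and lingo1b. It was under 2-fold for wnt4, col14a1a, ca4a, slc13a2 and lgals2b. The called rises had a median of 1.03 on the log2 scale and the called falls one of -1.14, and the smallest called change was 0.40. The median difference over all genes was -0.01. Counted by probe set, 681 were called (5.75%), 377 higher (3.18%) and 304 lower (2.57%), and 167 of these carried no single gene symbol. Of the 75 called genes with further tested probe sets, all 75 had every probe set on the same side of 0, and 51 had at least 1 further probe set called. In 435 of the 449 called genes the intensities of the RA arrays did not overlap those of the DMSO arrays, which was true of 10.8% of all genes (5.34% with every RA array above and 5.48% with every RA array below). Whichever single RA or DMSO array was left out, 326 of the 449 calls held, and such calls are termed firm here; for the other calls described, the arrays without which they were lost are named.

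**Figure D1:**
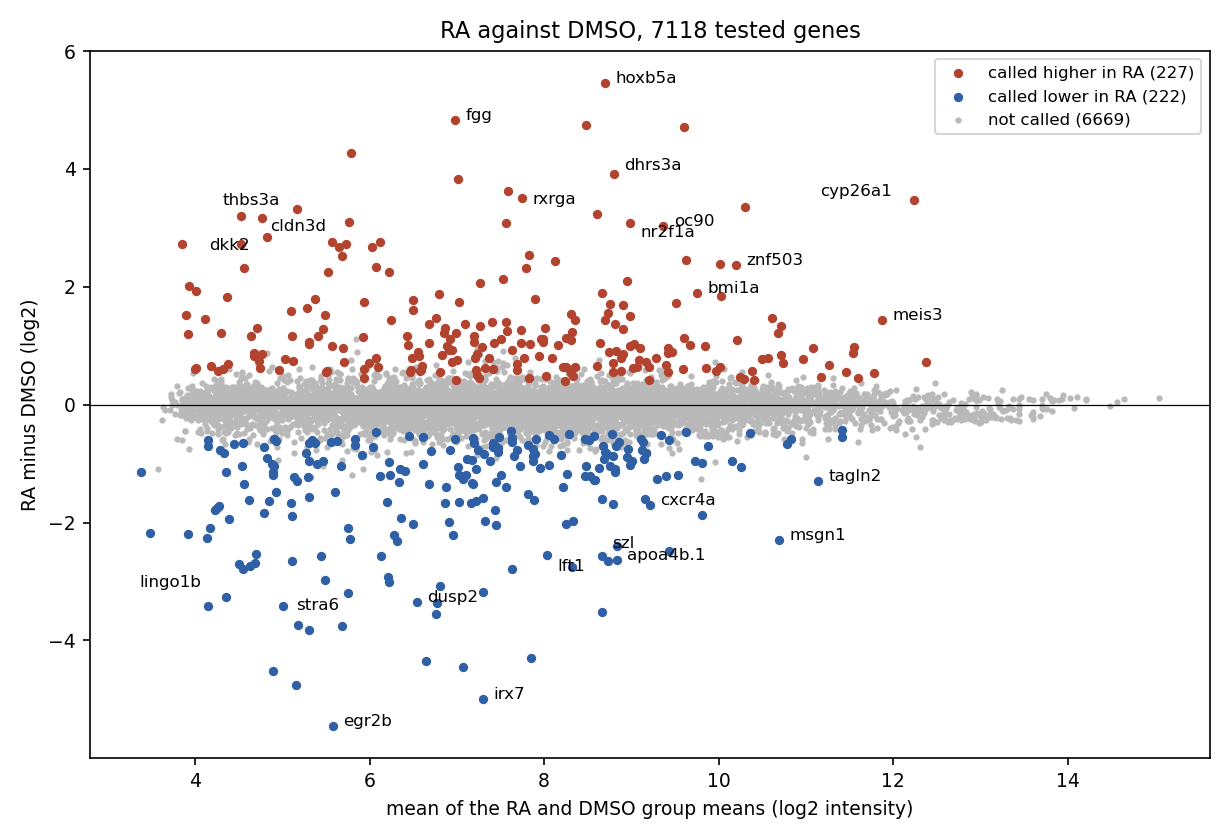
Log2 difference of RA minus DMSO (vertical axis) against the mean of the group means (horizontal axis, log2 intensity) for 7118 genes. The 227 genes called higher lie in red above 0, the 222 called lower in blue below it, and both reach beyond 4 on the log2 scale in dim and moderately bright genes alike.

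The share of called genes differed between the gene lists. Lists and members were chosen with earlier results of these data known, so the shares describe the lists and do not test functions. Of genes in any list 8.33% were called, against 3.53% of genes in no list. Of the genes in lists of developmental regulators, large shares were called: 65.9% for axial patterning, 40% for the retinoid pathway, 34.8% for endoderm, 34.1% for mesoderm, 33.3% for neural genes and 31.8% for families of transcription factors. Signalling genes stood at 18.5% and matrix and adhesion genes at 9.94%. Genes of transport (7.01%), metabolism (5.50%), the cytoskeleton (5.10%) and immunity (4.05%) lay near the 6.31% of all genes. The lowest shares were those of the nucleus, with chromatin, cell cycle and apoptosis genes (1.28%), and of the machinery of RNA and protein (1.06%), where 11 of 1036 genes rose and 0 fell. Those 11 became 3 to 5 when DMSO replicate 1, 2 or 4 or RA replicate 1, 3 or 4 was left out, with 0 falls. The counts were 14 higher and 2 lower with the replicate number as a block. With the 8 RA and DMSO arrays alone they were 6 higher and 1 lower, and with array weights 25 higher and 16 lower.

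**Figure D2:**
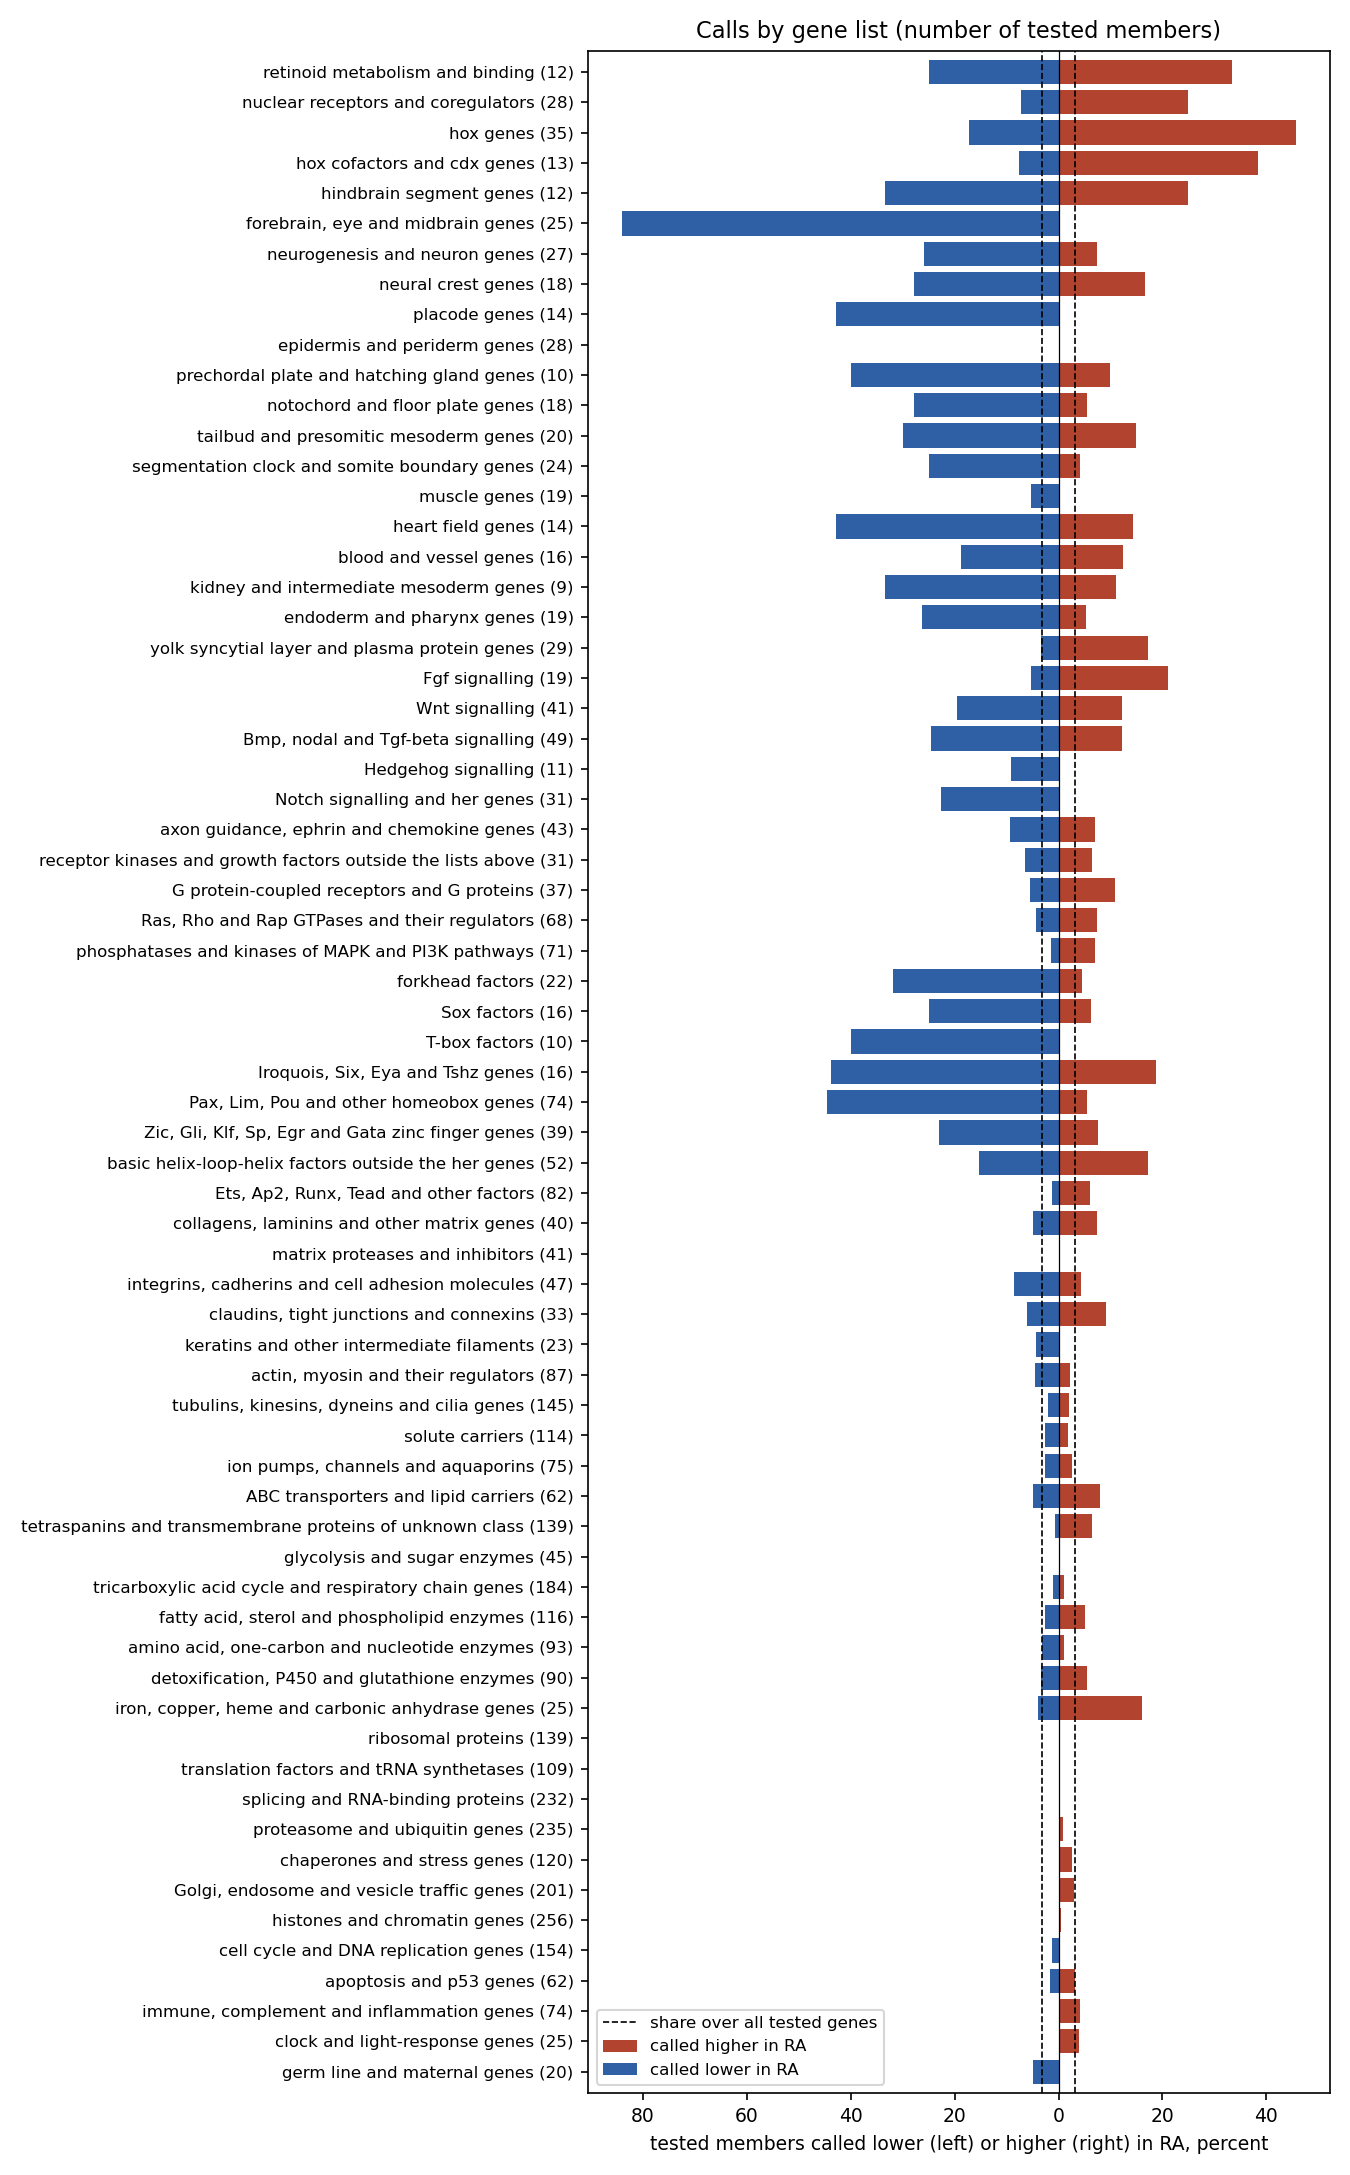
Percent of the tested members of each gene list called higher (right, red) or lower (left, blue) in RA, with the number of tested members in parentheses and dashed lines at the shares over all genes, 3.19% higher and 3.12% lower. Lists of at least 9 tested members are drawn; bars reach far past the lines at the top, among patterning genes, and shrink to nothing among ribosomal proteins, translation factors and splicing genes.

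The genes dhrs3a and cyp26a1, whose products lower RA, rose, whereas the uptake gene stra6 and the synthesis gene aldh1a2 fell. Among the 12 measured genes of retinoid metabolism and binding, 4 rose, 3 fell and 5 were not called. The retinaldehyde reductase gene dhrs3a, whose product turns the precursor of RA back into retinol, read 1679, 1956, 1413 and 1937 in the RA arrays, against 104, 108, 119 and 131 in the DMSO arrays. The main RA-degrading enzyme gene cyp26a1 read 16815, 15136, 13385 and 19449 in the RA arrays, against 1313, 1687, 1265 and 1565 in the DMSO arrays. Both genes were several times brighter in every RA array than in any DMSO array, with log2 differences of 3.91 ± 0.17 and 3.47 ± 0.27 (adjusted p = 8.58e-11 and 8.72e-08). The gene crabp2a, for a protein that carries RA to its receptors, rose by 0.77 ± 0.18. In the opposite direction, stra6, the membrane receptor through which cells take up retinol, read 8.14, 13.1, 7.83 and 11.3 in the RA arrays, against 87.2, 131, 116 and 92.1 in the DMSO arrays. With all RA arrays at or below 16, the lower limit adopted here, stra6 was at least 6.58-fold lower (adjusted p = 3.31e-10). That p-value was computed with RA readings under the lower limit. The hindbrain enzyme gene cyp26c1 was at least 2.03-fold lower, and aldh1a2, which makes RA in the trunk mesoderm, fell by 1.27 ± 0.29. The third Cyp26 gene, cyp26b1, rose by 0.92 ± 0.23, a call that ended without RA replicate 2 or 4 or DMSO replicate 1, 3 or 4 (adjusted p up to 0.0721), while its other probe sets, at 0.79 to 1.02, were all called.

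Receptors for retinoids and their partners also split. Of 28 nuclear receptor and coregulator genes, 7 rose and 2 fell. The retinoid X receptor gene rxrga read 797, 602, 735 and 777 in the RA arrays, against 60.0, 71.2, 57.5 and 66.7 in the DMSO arrays, a rise of 3.51 ± 0.15. The RA receptor gene raraa rose by 1.44 ± 0.13, whereas rarga fell to 47.8, 73.3, 46.6 and 81.9 with RA, against 254, 273, 176 and 273 with DMSO (-1.99 ± 0.20). In neither gene did an RA array overlap a DMSO array. The corepressor gene nrip1b, whose product binds receptors in the presence of ligand, rose by 2.09 ± 0.21. Orphan receptors of the COUP-TF family, which bind many of the same DNA elements, rose in nr2f1a (3.09 ± 0.24) and nr2f6b (1.48 ± 0.12). The orphan receptor gene nr2e1, a gene of the anterior brain and eye, fell by 1.89 ± 0.21. A call of nr2f5 (0.54 ± 0.15) was lost without RA replicate 1, 3 or 4 or DMSO replicate 1, 2, 3 or 4 (adjusted p up to 0.159).

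Along the head-to-tail axis, hox genes of the hindbrain and anterior trunk rose, while the most posterior hox genes fell, as did nearly all listed forebrain, eye and midbrain genes. Hox genes encode the homeodomain factors that give axial position. Of 35 measured, 16 rose and 6 fell, and the falls comprised hoxa2b and genes of the posterior end such as hoxd9a (-3.02 ± 0.18) and hoxa10b, at least 2.40-fold lower. The largest rise of all genes, that of hoxb5a, had readings of 2508, 3096, 2332 and 3198 in the RA arrays, against 63.7, 71.6, 47.8 and 70.8 in the DMSO arrays. The anterior gene hoxb1a read 4245, 3810.3, 4062 and 4050.0 in the RA arrays, against 381, 453, 351 and 404 in the DMSO arrays. In neither did an RA array overlap a DMSO array, and the differences were 5.46 ± 0.21 and 3.35 ± 0.18. Of 13 genes for hox cofactors and Cdx factors, 5 rose, all of the Meis family, from 1.17 for meis1a to 2.55 for meis2a, and pknox2 fell, at least 2.19-fold. Among 12 genes of hindbrain segments, the zinc finger genes znf503 (2.38 ± 0.14) and znf703 (1.097 ± 0.11) rose, and the segment gene egr2b fell at least 19.8-fold. Of 25 forebrain, eye and midbrain genes, 21 fell and 0 rose, with a median of -2.31, or -1.86 with the genes at the lower limit counted at their bound. The eye field factor gene rx3 read 69.4, 278, 87.4 and 135 in the RA arrays, against 816, 978, 625 and 963 in the DMSO arrays. The head gene otx2b read 79.1, 367, 139.8 and 206 in the RA arrays, against 964, 1486, 822 and 1095 in the DMSO arrays. In rx3 and in otx2b every RA array lay under every DMSO array (-2.76 ± 0.31 and -2.65 ± 0.33). In an extract of whole embryos, fewer cells of a type and less RNA per cell cannot be told apart, here or in the tissues below.

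Genes of neural progenitors and of the border of the neural plate fell more often than they rose. Of 27 genes of neurogenesis, 2 rose and 7 fell, the falls being those of the progenitor factors sox1a (-3.76 ± 0.18), sox21a (-2.56 ± 0.29) and sox2 (-0.95 ± 0.12), the spinal cord and hindbrain gene dbx1a (-3.55 ± 0.31), the Lim factors isl1a and isl2a, and olig3. The related bHLH gene olig2, needed for motor neurons, rose by 1.11 ± 0.22. Further probe sets gave smaller falls for sox1a (-1.79) and olig3 (-0.78), both called. The other 18 of the 27 genes were not called. The neural marker gene sox3 overlapped between the groups, at 3315 to 4040 in the RA arrays against 3273 to 3758 in the DMSO arrays. Of 14 genes of placodes, the ectodermal thickenings that form the ear, nose and lens, 6 fell and 0 rose. The preplacodal gene foxi1 read 9.89, 13.9, 19.7 and 24.4 in the RA arrays, against 140.3, 143, 110.3 and 114 in the DMSO arrays. The preplacodal gene six4b read 42.8, 62.0, 66.2 and 62.7 in the RA arrays, against 272, 248, 286 and 261 in the DMSO arrays. Neither gene overlapped between groups, with log2 differences of -2.97 ± 0.22 and -2.21 ± 0.14, and the border genes dlx3b (-1.22 ± 0.17) and dlx5a (-1.05 ± 0.18) fell as well. Neural crest genes went both ways, with 3 of 18 higher, sox10 (1.06 ± 0.21), crestin (1.06 ± 0.15) and id2a (0.89 ± 0.17), and 5 lower, among them foxd3 (-0.64 ± 0.10) and twist1a (-1.29 ± 0.24). Epidermal genes, in contrast, gave 0 calls of 28 in limma, with 7 at an unadjusted p under 0.05, and 0 to 1 higher and 0 to 1 lower when 1 array at a time was left out. With the replicate number as a block, 1 of these 28 was higher and 1 lower, and with array weights 5 were lower and 0 higher.

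In the mesoderm, more genes fell than rose in the lists of the prechordal plate, the notochord, the presomitic mesoderm and the heart and blood fields. Of 10 prechordal plate and hatching gland genes, 4 fell and 1 rose. The organiser gene gsc read 20.0, 78.1, 34.4 and 41.7 in the RA arrays, against 354, 411, 205 and 373 in the DMSO arrays. It fell by 3.07 ± 0.32, and the hatching gland factor gene klf17 fell by 1.03 ± 0.12. Of 18 notochord and floor plate genes, 1 rose and 5 fell. The homeobox gene noto (-1.40 ± 0.21) and the Bmp antagonist gene chrd (-0.70 ± 0.13) fell, and nkx2.2b was at least 3.83-fold lower. Counts for that list were 0 to 1 higher and 3 to 5 lower when 1 array at a time was left out. In the tailbud and presomitic mesoderm, 6 of 20 genes fell and 3 rose, the rises being those of cyp26a1, fgf8a and wnt11. The gene msgn1, for a bHLH factor that lets progenitors become presomitic mesoderm, read 575, 886, 707 and 864 in the RA arrays, against 3926, 3712, 2861 and 4248 in the DMSO arrays. Its T-box partner tbx16 fell by 1.25 ± 0.13, and the Wnt-responsive factor genes sp5a (-1.97 ± 0.24) and sp8b (-1.598 ± 0.12) fell. The list of segmentation clock and somite boundary genes had 1 rise and 6 falls among 24 genes, and 17 were not called. The genes her7 (-0.86 ± 0.20), part of the segmentation clock, and lfng (-0.58 ± 0.12), a modifier of Notch, fell. The integrin gene itga5, needed at somite boundaries, rose by 0.79 ± 0.14. The segmentation genes her1 and dlc overlapped between the groups. They read 165 to 213 and 164 to 274 in the RA arrays, against 150 to 240 and 171 to 266 in the DMSO arrays.

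Heart, blood and kidney lists held both directions. Of 14 heart field genes, 2 rose and 6 fell, among the falls nkx2.7 (-1.97 ± 0.23) and aplnra (-1.62 ± 0.11), a receptor gene of cells that migrate to the heart field. The pharyngeal and heart gene tbx1 read 9.88, 13, 8.67 and 9.78 in the RA arrays, against 71.7, 96.5, 43.1 and 61.7 in the DMSO arrays, at least 4.09-fold lower. The bHLH gene hand2, required in the heart, rose by 1.03 ± 0.16, so the factors of this field did not share 1 direction. Among 16 blood and vessel genes, 2 rose and 3 fell. The stem cell factor gene tal1 was at least 4.00-fold lower, and drl, an early marker of the lateral plate, fell by 1.92 ± 0.16. The flow-responsive factor gene klf2a fell by 0.75 ± 0.16, and urod, an enzyme gene of heme synthesis, rose by 0.80 ± 0.14. In the kidney list 1 of 9 rose and 3 fell. The Lim factor gene lhx1b read 45.0, 60.9, 28.01 and 102 in the RA arrays, against 10.5, 10.5, 10.7 and 10.6 in the DMSO arrays, at least 3.31-fold higher. The kidney and brain factor gene pax2a fell by 1.66 ± 0.19. Counts for the kidney list were 1 to 2 higher and 1 to 3 lower when 1 array at a time was left out. Muscle genes gave 1 call of 19, of myf5 (-0.82 ± 0.20), lost without RA replicate 1 or 3 or DMSO replicate 2 or 4 (adjusted p up to 0.0820).

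Of 19 genes of endoderm and pharynx, 5 fell and 1 rose. The chemokine receptor gene cxcr4a, which guides endoderm cells over the yolk, read 207, 450.2, 337 and 376 in the RA arrays, against 1013, 1058, 1161 and 1066 in the DMSO arrays. It fell by 1.70 ± 0.22 with no overlap between the groups, and the thyroid and forebrain factor gene nkx2.1 fell by 1.84 ± 0.21. The ligand gene fgf3, expressed in the pharynx and hindbrain, was at least 2.19-fold lower. The member that rose, id2a, is shared with the neural crest list. The early endoderm factor gene sox32 read 48.6, 88.3, 139 and 105 in the RA arrays, against 254, 151, 181 and 179.9 in the DMSO arrays, with a log2 difference of -1.08 ± 0.46 and an adjusted p of 0.300, so it was not called.

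The genes of all 3 fibrinogen chains rose, next to mixed changes in lipid carriers. Fibrinogen is the clotting protein that the liver releases into plasma, and before there is a liver the yolk syncytial layer expresses many plasma protein genes. Of 29 genes of that layer and of plasma proteins, 5 rose and 1 fell. With the filter raised to log2 6, which leaves out dimmer genes, the count was 1 higher and 1 lower. The gamma chain gene fgg read 647, 785, 469 and 866 in the RA arrays, against 24.4, 24.6, 22.9 and 22.7 in the DMSO arrays. The beta chain gene fgb read 75.3, 44.2, 72.3 and 93.1 in the RA arrays, against 15.12, 26.1, 28.1 and 21.7 in the DMSO arrays. The alpha chain gene fga read 21.7, 34.4, 23.9 and 127 in the RA arrays, against 10.21, 11.5, 10.8 and 11.3 in the DMSO arrays. Every RA array exceeded every DMSO array in all 3 genes, by log2 differences of 4.83 ± 0.21 for fgg and 1.64 ± 0.23 for fgb and by at least 2.42-fold for fga, whose DMSO arrays all lay at or below 16 (adjusted p = 6.21e-11, 8.75e-05 and 0.00409). The p-value of fga was computed with DMSO readings under the lower limit. The gene agt, for the precursor of angiotensin, another plasma protein, rose by 1.07 ± 0.17. The apolipoprotein gene apoa4b.1 moved the other way, with 148, 251, 152 and 202 in the RA arrays, against 1229.8, 1147, 1005 and 1168 in the DMSO arrays, a log2 difference of -2.63 ± 0.18. Its close relative apoa4b.2 fell by 2.03 ± 0.21, and apom, a carrier of signalling lipids, fell by 1.23 ± 0.26. Among the other lipid carriers, apoba, for the core protein of large lipoproteins, rose by 1.69 ± 0.32, with a further probe set at 1.29 that was not called. The fatty acid-binding protein gene fabp3 rose by 1.87 ± 0.30 and the oxysterol-binding protein gene osbpl7 by 1.05 ± 0.15. In all, 5 of 62 transporter and lipid carrier genes rose and 3 fell.

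**Figure D3:**
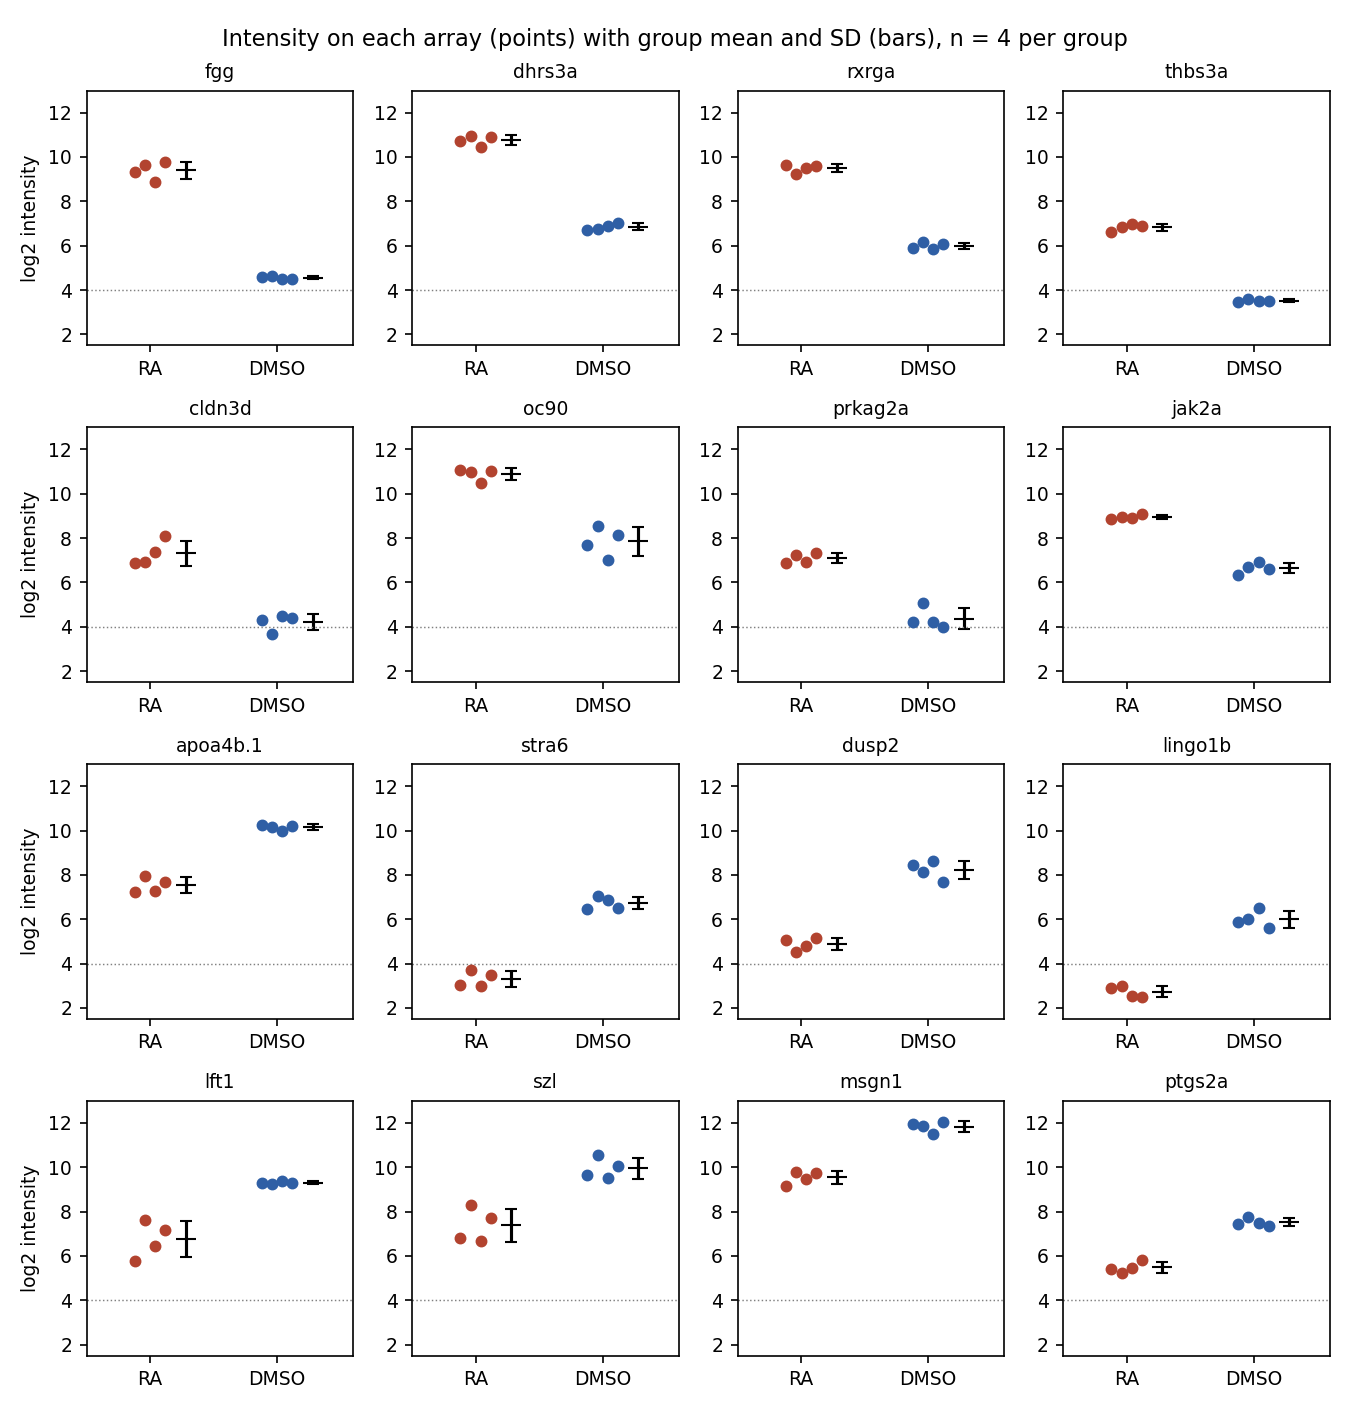
Log2 intensity on each of the 4 RA and 4 DMSO arrays (points) with the mean and SD of the group (bars) for 16 genes; the dotted line marks log2 4, the lower limit. The upper 8 genes lie higher on every RA array and the lower 8 lie lower, and in stra6 and lingo1b all RA arrays fall under the limit.

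Signalling pathways differed in the direction of their called members. In the Fgf pathway 4 of 19 genes rose and 1 fell. The receptor gene fgfr3 read 499, 288, 429 and 368 in the RA arrays, against 82.9, 100.1, 90.1 and 81.7 in the DMSO arrays. It rose by 2.13 ± 0.16, and the receptor gene fgfr4 by 0.77 ± 0.15. The ligand gene fgf8a rose by 0.55 ± 0.13 and the feedback phosphatase gene dusp6 by 0.99 ± 0.15, with a further dusp6 probe set at 0.60 (adjusted p = 0.0595). The fall was that of fgf3.

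In the Wnt pathway 5 of 41 genes rose, among them ligands and a secreted modulator, and 8 fell, among them receptors and a transcriptional target. The secreted modulator gene dkk2 read 43.3, 97.8, 50.9 and 154 in the RA arrays, against 10.7, 10.0, 11.1 and 10.5 in the DMSO arrays. The ligand gene wnt4 read 36.6, 20.8, 38.2 and 31.0 in the RA arrays, against 7.84, 7.18, 9.93 and 6.02 in the DMSO arrays. Both had all DMSO arrays at or below 16 and were at least 4.74-fold and 1.92-fold higher (adjusted p = 1.25e-06 and 2.86e-06). These p-values were computed with DMSO readings under the lower limit. The ligand gene wnt11 rose by 1.89 ± 0.17 and prickle1b, of the planar polarity branch, by 0.72 ± 0.17. All 4 called Frizzled receptor genes fell: fzd8b (-1.68), fzd8a (-1.27), fzd10 (-1.21) and fzd9b (-0.73), on the log2 scale. The factor gene tcf7l1b fell by 0.64 ± 0.13.

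Genes of Bmp and nodal signalling fell in ligands, receptors and antagonists alike: 12 of 49 fell and 6 rose. The gene szl, whose product protects the Bmp antagonist Chordin, read 112, 311, 103 and 210.3 in the RA arrays, against 802, 1521, 735 and 1062 in the DMSO arrays. The nodal inhibitor gene lft1 read 54.6, 197, 87.8 and 145 in the RA arrays, against 621, 613, 671 and 620.1 in the DMSO arrays. Within the RA group these genes varied by several-fold between arrays, yet no RA array reached the lowest DMSO array (log2 differences -2.58 ± 0.37 and -2.54 ± 0.28). Among Bmp ligand genes, bmp2b fell by 0.87 ± 0.19 and bmp3 fell by 0.89 ± 0.13, and the receptor gene bmpr1ba fell by 1.05 ± 0.11. The nodal partner gene gdf3, supplied by the mother, fell by 1.35 ± 0.22. The ligand gene bmp5, in contrast, read 48.2, 72.9, 33.2 and 106 in the RA arrays, against 8.72, 8.75, 9.59 and 8.93 in the DMSO arrays, at least 3.71-fold higher. The corepressor genes skia (1.28 ± 0.20) and skib (1.31 ± 0.14), whose products silence Smad factors, and the Bmp-responsive gene id2b (1.59 ± 0.17) rose as well. Of the remaining calls in this list, tdgf1, the nodal coreceptor gene, fell by 1.17 ± 0.29, a call lost without RA replicate 1 or DMSO replicate 3 (adjusted p up to 0.0912).

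**Figure D4:**
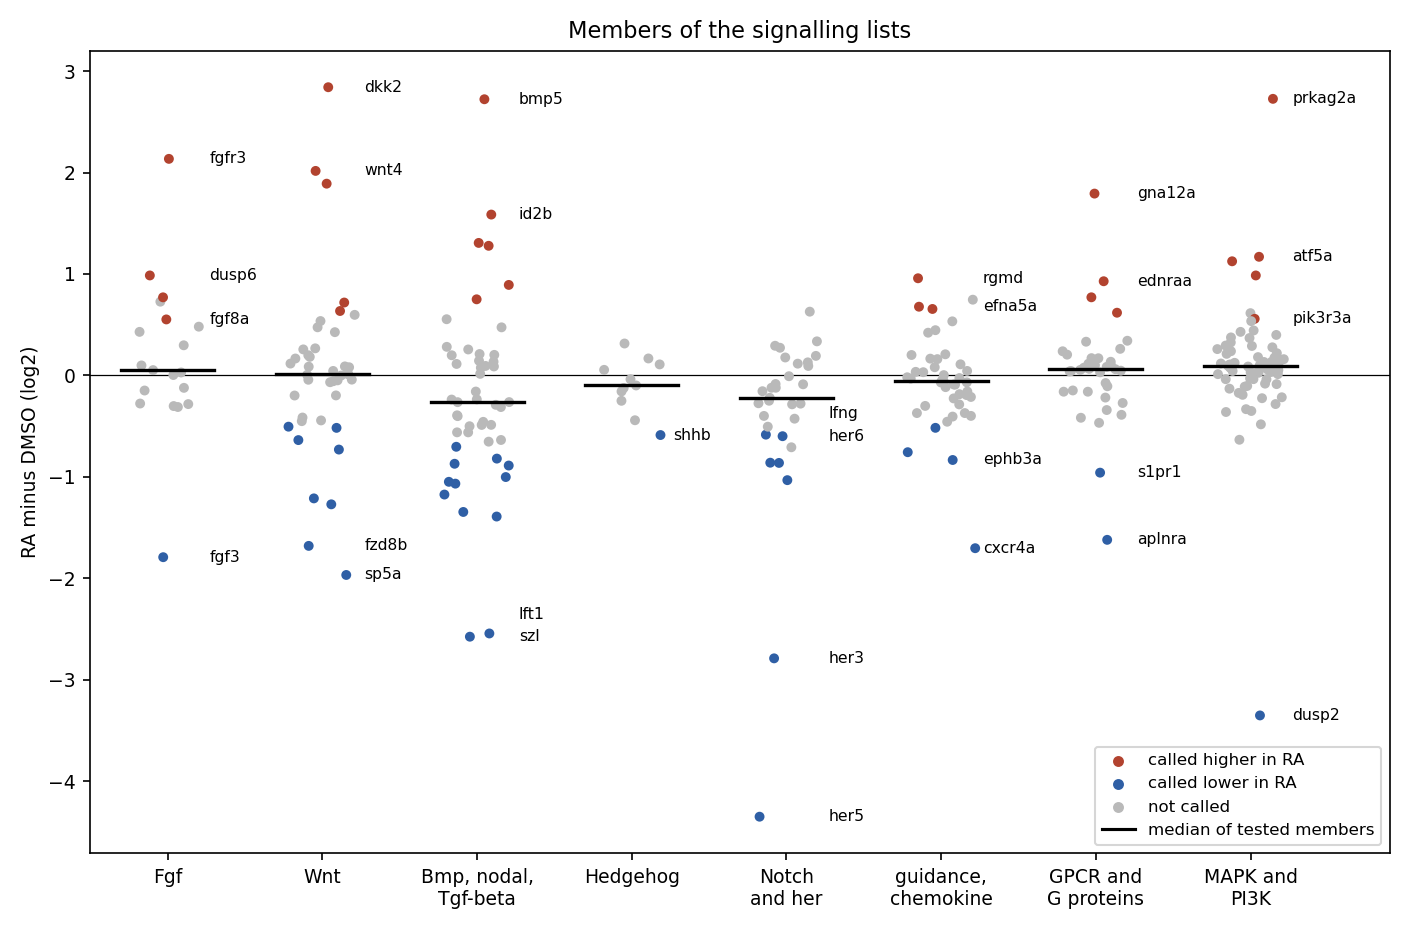
Log2 difference of RA minus DMSO for every tested member of 8 signalling lists, with called members in colour and a black bar at the median of the list. The points spread to both sides in the Fgf, Wnt and Bmp lists, while in the Notch and her list all 7 called members lie below 0.

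In the list of Notch signalling and her genes 7 of 31 fell, 0 rose and 24 were not called. The neural genes her5 (-4.35 ± 0.28) and her3 (-2.79 ± 0.30) led the falls. Members were matched by name, and Notch activity was not tested. When RA replicate 2 was left out 1 rose, and with array weights 3 rose and 9 fell. Of 71 genes of MAPK and PI3K pathways, 5 rose and 1 fell, a called share of 8.45% against 6.31% over all genes. The phosphatase gene dusp2 read 32.9, 22.8, 27.5 and 35.0 in the RA arrays, against 343, 283, 389 and 207 in the DMSO arrays, a log2 difference of -3.35 ± 0.20. The gene prkag2a, for a regulatory subunit of the energy sensor AMPK, read 118, 152, 120.4 and 160.3 in the RA arrays, against 18.5, 33.3, 18.6 and 15.8 in the DMSO arrays. It rose by 2.73 ± 0.20, and the survival kinase gene sgk1 by 1.13 ± 0.21. Of 37 genes of G proteins and their receptors, 4 rose and 2 fell. The G protein subunit gene gna12a rose by 1.79 ± 0.11 and the G protein inhibitor gene rgs5a by 0.77 ± 0.13. Of 43 guidance genes, 3 rose and 4 fell. The gene rgmd rose by 0.96 ± 0.12, and the Eph receptor gene ephb3a fell by 0.83 ± 0.18 with its ligand gene efnb2b (-0.76 ± 0.16, other probe set -1.098, adjusted p = 0.185). Of 68 genes of small GTPases, 5 rose and 3 fell. The genes rasl11b (-1.39 ± 0.17), cdc42ep4a (-1.21 ± 0.13), an effector of Cdc42, and rhov (-0.80 ± 0.13) fell, while rasgef1ba (0.83 ± 0.16) and arhgap46a (0.87 ± 0.14) rose. Counts for the guidance, G protein and GTPase lists were 1 to 4 higher and 3 to 5 lower, 2 to 4 higher and 1 to 2 lower, and 3 to 6 higher and 3 lower when 1 array at a time was left out.

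Outside the hox, head and mesoderm genes above, the transcription factors that rose came from many families. The homeobox gene nkx3-2, a factor of jaw and axial cartilage, read 21.5, 32.4, 39.7 and 68.5 in the RA arrays, against 5.57, 5.56, 5.80 and 5.58 in the DMSO arrays, at least 2.32-fold higher. The CCAAT-binding factor gene nfia read 165, 191, 161 and 216 in the RA arrays, against 30.4, 28.6, 26.05 and 22.5 in the DMSO arrays. It rose by 2.77 ± 0.15, and a further probe set gave 0.66, also called. The teashirt gene tshz1, related to a trunk factor of the fly, rose by 2.46 ± 0.18 and the forkhead gene foxg1b by 2.52 ± 0.16. The Ets factor genes elf3 and etv6 rose by 1.80 ± 0.13 and 1.56 ± 0.16, the proneural zinc finger gene insm1b by 1.09 ± 0.18 and the low-oxygen factor gene epas1a by 0.63 ± 0.12. Falls outweighed rises in the homeobox list (4 higher and 33 lower of 74), the forkhead list (1 and 7 of 22) and the T-box list (0 and 4 of 10). In the bHLH list the counts were 9 higher and 8 lower of 52. Among the falls were mycb (-1.04 ± 0.14), a gene of the Myc family, tcf12 (-0.92 ± 0.18), a common partner of bHLH factors, and the zic5 gene of the neural plate border (-2.56 ± 0.23).

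Genes of the extracellular matrix, of adhesion and of tight junctions changed singly. The thrombospondin gene thbs3a, for a calcium-binding matrix protein, read 99.1, 114, 128 and 116.6 in the RA arrays, against 10.9, 12.2, 11.5 and 11.3 in the DMSO arrays. All DMSO arrays lay at or below 16, and thbs3a was at least 7.11-fold higher (adjusted p = 1.03e-11, computed with DMSO readings under the lower limit). The collagen gene col14a1a was at least 1.58-fold higher, and the basement membrane collagen gene col15a1b fell by 1.66 ± 0.27. The fibronectin gene fn1a fell by 0.66 ± 0.14, while the gene of its receptor subunit itga5 rose, as given above; further fn1a probe sets had -0.88 to -0.31 (adjusted p = 0.493 or above). In total 3 of 40 matrix genes rose and 2 fell, and 32 of the 40 had a difference above 0, with a median of 0.17 against -0.01 over all genes. Array by array, relative to the DMSO mean of each gene, the median of the matrix list was 0.26, 0.05, 0.06 and 0.26 in the RA arrays, against -0.02, 0.06, -0.07 and 0.03 in the DMSO arrays, so RA replicates 2 and 3 lay beside DMSO replicate 2. The median difference was 0.10 without RA replicate 1 and 0.10 without DMSO replicate 3. For 41 proteases and their inhibitors limma called 0 genes, with 3 at an unadjusted p under 0.05. The claudin gene cldn3d, for a protein of the tight junction, read 118, 119.9, 166 and 273 in the RA arrays, against 19.9, 12.9, 22.5 and 21.0 in the DMSO arrays. It rose by 3.09 ± 0.36, the largest rise in the junction list, and the junction linker gene cgnl1 by 1.01 ± 0.20. The gene cldn5a, a claudin of the ventricle lining and of vessels, fell by 0.93 ± 0.17, with further probe sets at -0.42 to -0.23 (adjusted p = 0.652 or above). The protocadherin gene pcdh10a rose by 2.34 ± 0.19, whereas its duplicate pcdh10b fell by 0.96 ± 0.15.

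Cytoskeletal genes were called at about the share of all genes. Of 87 genes of actin and myosin, 2 rose and 4 fell, and the counts were 0 to 5 higher and 4 lower when 1 array at a time was left out, with 0 higher without DMSO replicate 3 and 5 higher without RA replicate 2. The actin-binding transgelin gene tagln2 read 1233, 1821, 1155 and 1667 in the RA arrays, against 3337, 3817, 2688 and 4469.9 in the DMSO arrays. It fell by 1.29 ± 0.18, its neuronal relative tagln3b fell by 1.18 ± 0.22 and limch1b fell by 0.95 ± 0.15. The tubulin gene tuba8l3 rose by 1.31 ± 0.22, and mid1ip1l, whose product acts on microtubules, fell by 1.32 ± 0.26. Keratins and other filament genes gave 0 rises and 1 fall of 23, the fall being that of gfap (-0.82 ± 0.22), lost without RA replicate 1, 2, 3 or 4 or DMSO replicate 2 or 4 (adjusted p up to 0.117). With the replicate block, 1 filament gene was higher and 3 lower, and with array weights 0 were higher and 6 lower.

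Among genes of membranes and transport, lingo1b, for a neuronal membrane protein with leucine-rich repeats, read 7.32, 8.01, 5.84 and 5.63 in the RA arrays, against 59.4, 63.6, 90.7 and 48.0 in the DMSO arrays. It was at least 3.98-fold lower. The water channel gene aqp3a fell by 1.35 ± 0.29. Of 139 tetraspanin and other membrane protein genes, 9 rose and 1 fell, a called share of 7.19%, near the 6.31% of all genes. Among the rises were fam49al (2.24 ± 0.34), tmem108 (1.74 ± 0.18) and the tetraspanin gene tspan18a (1.16 ± 0.22). The gene fam49al entered the list by a pattern of its name, which does not show that its product is a membrane protein. Of 114 solute carrier genes 2 rose and 3 fell, a called share of 4.39%. The counts were 1 to 2 higher and 1 to 3 lower when 1 array at a time was left out, and 5 and 4 with the replicate block. The carrier genes with firm calls were slc25a33 of the mitochondrion, which fell by 0.84 ± 0.16, and slc13a2, for a carrier of dicarboxylates, at least 1.42-fold higher.

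In metabolism, the cyclooxygenase genes ptgs1 and ptgs2a fell, and single genes of sterol, vitamin D and acid-base metabolism changed. Cyclooxygenases make the precursor of the prostaglandins. The gene ptgs2a read 42.8, 37.8, 44.0 and 56.7 in the RA arrays, against 173, 219, 177 and 164 in the DMSO arrays. The gene ptgs1 read 448, 227, 440.5 and 366 in the RA arrays, against 815, 618, 859 and 632 in the DMSO arrays. The groups overlapped in neither, and the log2 differences were -2.02 ± 0.16 and -1.01 ± 0.23 (adjusted p = 7.48e-08 and 0.0105). The gene hmgcs1, an early step of cholesterol synthesis, rose by 1.03 ± 0.17, and sptlc2a, of sphingolipid synthesis, by 0.72 ± 0.13, while the lipid phosphatase gene lpin2 fell by 0.95 ± 0.18. Over the whole list of fatty acid, sterol and phospholipid enzymes, 6 of 116 rose and 3 fell, a called share of 7.76% against 6.31% over all genes. The cytochrome gene cyp24a1, which inactivates vitamin D, rose by 1.44 ± 0.20, with a second probe set at 1.70. The carboxylesterase gene ces2a fell by 1.59 ± 0.31 and the methionine adenosyltransferase gene mat1a fell by 1.52 ± 0.30. Carbonic anhydrase genes went both ways. The cytosolic enzyme gene ca2, which also marks ionocytes, read 799, 632, 625 and 569.7 in the RA arrays, against 126, 153, 118 and 92.1 in the DMSO arrays, a rise of 2.44 ± 0.20, with 0.86 for a further probe set that was also called. The membrane-bound enzyme gene ca4a was at least 1.87-fold higher, and ca9, in mammals a target of low-oxygen signalling, fell by 1.63 ± 0.23. The globin gene cygb1 rose by 1.16 ± 0.18 and the mitochondrial uncoupling gene ucp1 by 1.52 ± 0.19. For 45 genes of glycolysis limma called 0, with 4 at an unadjusted p under 0.05.

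The machinery of gene expression was almost free of calls. Limma called 0 of 139 ribosomal protein genes, 0 of 109 translation genes and 0 of 232 splicing and RNA-binding genes, with 0, 3 and 4 at an unadjusted p under 0.05. Ribosomal protein genes had a median difference of -0.22, with 13 of 139 above 0. Taken array by array, relative to the DMSO mean of each gene, the median over the ribosomal genes was -0.50, 0.22, -0.49 and -0.06 in the RA arrays, against 0.13, -0.06, -0.17 and 0.09 in the DMSO arrays. RA replicates 1 and 3 lay below every DMSO array, replicate 2 lay above every one of them, and the median difference was -0.37 without RA replicate 2, -0.12 without RA replicate 1 and -0.11 without RA replicate 3. Genes of the tricarboxylic acid cycle and respiratory chain were lowest in the same RA arrays, 1 and 3, at -0.44, 0.08, -0.38 and -0.08 in the RA arrays, against 0.07, -0.17, 0.08 and -0.03 in the DMSO arrays, and limma called 2 of 184 higher and 2 lower. With array weights 7 ribosomal and 13 respiratory genes were called lower, as were 2 splicing genes. With the replicate block the ribosomal and respiratory counts were 0 and 4.

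**Figure D5:**
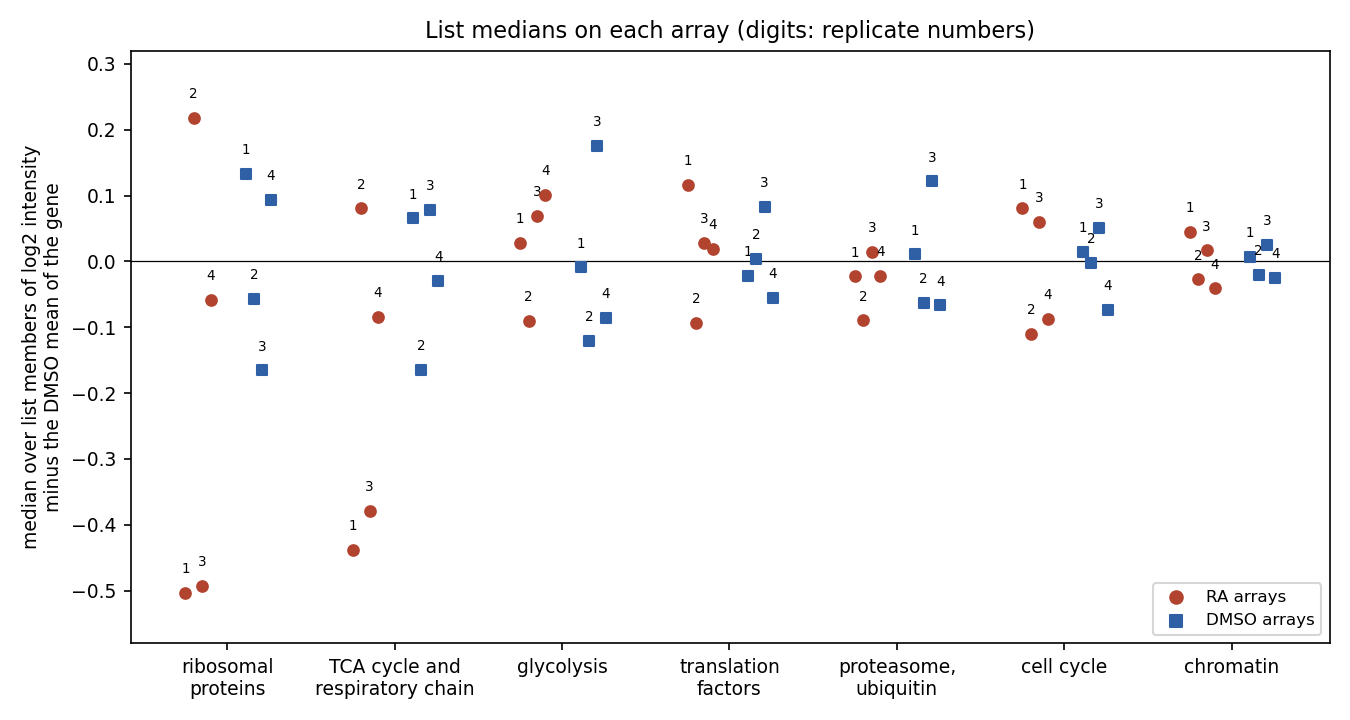
Median over the members of 7 lists of housekeeping genes on each array, as log2 intensity minus the DMSO mean of the gene; red circles are RA arrays and blue squares DMSO arrays, numbered by replicate. RA replicates 1 and 3 lie near -0.5 for ribosomal proteins, while the other lists stay within about 0.2 of 0 apart from the same arrays in the respiratory list.

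The chromatin and cell cycle lists likewise held few calls. Of 256 chromatin genes the Polycomb gene bmi1a, a repressor subunit that limits hox gene activity in mice, was the single call. With array weights the list had 6 higher and 7 lower, and with the replicate block or without DMSO replicate 2 it had 1 higher and 1 lower. The gene bmi1a read 1836, 1535, 1575 and 1708 in the RA arrays, against 389.7, 577, 451 and 389 in the DMSO arrays, a rise of 1.90 ± 0.13 (adjusted p = 1.64e-08). Among 154 cell cycle genes 0 rose and 2 fell, the kinase gene plk3 (-0.93 ± 0.14) and the Cdc42 effector gene given above. With the replicate block the counts were 1 and 3. Of 62 apoptosis genes, 2 rose and 1 fell, a called share of 4.84% against 6.31% over all genes. The gene that fell, diabloa, whose product frees caspases from their inhibitors, had -2.05 ± 0.21; the rises were 0 to 2 when 1 array at a time was left out. For 201 vesicle genes the count was 6 higher and 0 lower. The called share was 2.99% against 6.31% over all genes, and the share higher lay near the 3.19% of all genes. Firm calls were those of rab28 (0.64 ± 0.14) and of cavin2b (0.58 ± 0.13), a coat protein gene of caveolae. When 1 array at a time was left out the count was 2 to 8 higher and 0 lower. Immune genes gave 3 rises of 74 (5 with the replicate block), the cytokine receptor kinase gene jak2a, the galectin gene lgals2b, at least 1.43-fold, and the complement gene c7b (0.79 ± 0.17). The kinase gene jak2a read 469.8, 500.1, 481 and 539 in the RA arrays, against 81.9, 105, 119 and 96.3 in the DMSO arrays, a rise of 2.32 ± 0.12.

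Among the other genes with the largest changes, oc90 encodes an otolith matrix protein. It read 2146, 2036, 1423 and 2073 in the RA arrays, against 209, 374, 130.0 and 279 in the DMSO arrays, a rise of 3.04 ± 0.36. Of 498 genes known only by clone or locus names, 11 rose and 10 fell, a share of 4.22%, and the counts were 10 to 12 higher and 5 to 9 lower when 1 array at a time was left out (lower calls fell to 6, 5 and 6 without DMSO replicate 1, DMSO replicate 4 and RA replicate 3).

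Most pairs of teleost duplicate genes in which both members were called moved in the same direction. Of 352 tested pairs of a and b duplicates, 18 had both members called and 45 had 1. In 15 of the 18 both members moved the same way, among them the engrailed genes en2a and en2b and the id2a and id2b genes. For these pairs no expected share was computed, and close duplicates can share probes, so the count does not describe duplicates in general. The pairs that parted, named after their values were seen, were irx1a (-2.92 ± 0.14) and irx1b (0.79 ± 0.17), pcdh10a and pcdh10b, and the Polycomb genes (not in the chromatin list) phc2a (-0.99 ± 0.13) and phc2b (0.74 ± 0.17, a call lost without RA replicate 4 or DMSO replicate 3 or 4 (adjusted p up to 0.0560)). Neighbours on a chromosome were also counted. Of 2391 pairs of tested genes next to each other in the gene table of assembly GRCz12tu, 35 had both genes called, 28 of them in the same direction. Many of the 28 were pairs of hox genes, and some hox genes stood in more than 1 pair, as hoxb5a did with hoxb6a and with hoxb4a. No expected share was computed, so the count does not describe neighbours in general. Outside the hox clusters the pairs in the same direction included dlx3b and dlx4b, zic2a and zic5, rab28 and nkx3-2, and the linked nkx genes nkx2.1 and nkx2.9.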

How the data were processed

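Whole-embryo RNA was hybridised to Affymetrix zebrafish arrays. What the authors deposited is a linear intensity for each probe set on each array, summarised with GCRMA, whose version is not named in the submitters' processing notes; the method subtracts background by probe sequence and normalizes between arrays. Groups, replicate numbers and the doses in µM came from the titles. Log2 intensities of all 16 arrays were fitted with limma 3.58.1 (lmFit, eBayes; R 4.3.3) as 4 group means, with 12 residual and 4.45 prior degrees of freedom. The 115 control probe sets and those not above log2 4 on at least 4 arrays were left out. RA minus DMSO was tested two-sided and adjusted by Benjamini-Hochberg over 11843 probe sets. Values after ± are standard errors of log2 differences, with n = 4 arrays per group, whose number limits the precision. A gene whose lower group was at or under log2 4, an intensity of 16, on all its 4 arrays has only a bound, computed against 16. Such a gene can pass the filter through its higher group alone, and its p-value uses readings that do not exceed the limit. The model was tested on simulated data.

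Symbols came from the platform annotation, updated by Entrez number through the table of assembly GRCz12tu, which matched 10718 probe sets and changed 1 symbol. Of 15617 probe sets, 10802 had 1 symbol, 135 had several and were not named, and 4680 had none. Close duplicates can share probes. Lists of symbols or name patterns (70 in all) group the genes; some pattern matches do not do what the list's name says. The members and lists were chosen with earlier results of these data known. The rule for named genes took the top 25 rises and top 25 falls among calls without overlap, called list members and the first 3 members of explicit lists, 367 genes in all; those described were selected for length after their values were seen, mostly from calls that held without any single array.

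Deviations from the group means of same-numbered RA and DMSO arrays correlated at 0.13, 0.27, 0.34 and 0.15. Arrays of different numbers were not compared in this way, so these values cannot show whether the numbers pair the arrays. The labels state no pairing. The main fit was therefore unpaired, and a fit with the number as a block was made as an alternative. The other alternatives were other filters, normalizations, offsets, weights and priors, the 8 arrays alone, means over probe sets, and leaving out each array. A planned count of receptor motifs in promoters was not run, since promoter sequences were not used here.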

Additional observations from a re-analysis of the deposited data

Results flagged for a closer look

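Among the 392 groups of 4 arrays behind the described genes, 15 (3.83%) held 1 array whose gap to the nearest of the others exceeded Dixon's critical value; chance flags about 1 group in 20. In the RA group, replicate 1 was lowest for isl2a, at 14.3 against 28.3 to 31.0 on the other RA arrays, and for six4b, at 42.8 against 62.0 to 66.2. Replicate 2 was highest for nr2e1, at 24.97 against 15.4 to 16.8, and replicate 3 was lowest for oc90, at 1423 against 2036 to 2146. In the DMSO group, replicate 3 was lowest for diabloa, at 244 against 388 to 424 on the other DMSO arrays, for rarga, at 176 against 254 to 273, and for sox2, at 1357 against 1659 to 1715. It was highest for lft1, at 671 against 613 to 621, for slc25a33, at 739 against 497 to 529, and for nkx3-2, at 5.80 against 5.56 to 5.58, all under the lower limit. DMSO replicate 2 was highest for cygb1, at 34.8 against 26 to 27.1, for cyp26b1, at 406 against 301 to 315, and for fzd10, at 1179 against 978 to 992. DMSO replicate 4 was lowest for c7b, at 86.5 against 120.2 to 127, and highest for tuba8l3, at 23.9 against 14.6 to 15.0. Of these genes, cyp26b1 lost its call without some arrays, as given with its values, and the other 14 kept theirs whichever array was left out. Most described genes were selected for calls that held in this way.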

How the results depend on the processing

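No called gene changed sign under any of the 18 alternatives run, and 80.2% to 98.4% of the 449 calls were kept under each. The counts of probe sets, genes and list members as a whole stayed within 1.5 times those given except with array weights, which called 628 probe sets higher and 566 lower, 366 genes higher and 397 lower, and 298 list members lower; the cause was not tested. When 1 array at a time was left out, 301 to 379 probe sets were higher and 242 to 276 lower, 180 to 221 genes higher and 186 to 205 lower, and 132 to 163 list members higher and 155 to 167 lower. Single lists moved more: a count in either direction moved by over 1.5 times in 44 of 70 lists with array weights, in 14 with the replicate block, in 3 to 17 with the other settings, and in 11 to 23 when 1 array was left out. Of the 194 described genes with a call, 189 to 192 kept it when 1 array at a time was left out. This was largely set by their selection, mostly from calls that held without any single array. With the filter raised to log2 6, 166 were called. The replicate block gave 263 genes higher and 262 lower; beyond the list counts given with their lists, it changed no call of a described gene. No scaling moved the median of all genes by more than 0.1 on the log2 scale.

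The comparison has 4 arrays per group, and dim genes are read only as bounds. Exposure began at 6.5 hpf with RA and at 5.25 hpf with DMSO, so time of exposure and treatment cannot be told apart. The percent of DMSO is recorded for the DMSO group only, so a difference in solvent cannot be told apart from treatment either. Whole embryos do not show in which cells a gene changed, nor at which time after RA was added. Scan dates, slides and probe-level data were not analysed here, and whether the intensities were scaled after GCRMA is not stated in the labels. Further probe sets disagreed in size for some genes, as given beside them.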

Other observations

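Of the 449 called genes, 106 stand in none of the lists, and those named here were chosen after their values were seen. The largest falls among them were of the linked prostaglandin D synthase genes ptgdsb.1 and ptgdsb.2, whose products make a prostaglandin from the precursor that cyclooxygenases supply. The gene ptgdsb.1 read 129, 311, 174 and 230.4 in the RA arrays, against 899, 1183, 869 and 1323 in the DMSO arrays, and ptgdsb.2 read 208, 408, 202 and 430.3 in the RA arrays, against 1345, 1843, 1478 and 1923 in the DMSO arrays. Both lay lower in every RA array, with log2 differences of -2.39 ± 0.24 and -2.47 ± 0.24, and as near-identical neighbours they may share probes. Among genes that rose, insig1, a brake on sterol synthesis in the endoplasmic reticulum, had 1.06 ± 0.14, and dact2, a modulator of Wnt and nodal signalling, had 1.54 ± 0.22. The gene ppp1r13ba, of a family that binds p53, read 112, 117.1, 126 and 156 in the RA arrays, against 16.6, 19.0, 26.7 and 18.8 in the DMSO arrays, a rise of 2.67 ± 0.14. Other rises were those of tiparp (1.72 ± 0.15), an ADP-ribosyltransferase gene, and of tsc22d3 (1.36 ± 0.20), in mammals a glucocorticoid-induced gene. The sulfatase gene sulf1, whose product trims heparan sulfate, fell by 1.099 ± 0.17, and tpbg1b, of an inhibitor of Wnt signalling, fell by 1.79 ± 0.24. The gene selenop2, for a selenium carrier, fell by 1.14 ± 0.21.

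Some of the largest changes belonged to probe sets without a single gene symbol, of which 118 rose and 49 fell. Probe set Dr.2623.1.A1_at read 421, 289, 326 and 371 in the RA arrays, against 15.9, 23.0, 11.8 and 11.8 in the DMSO arrays, a log2 difference of 4.54 (adjusted p = 3.12e-11). Probe set Dr.21553.1.A1_at read 77.9, 226, 62.1 and 204 in the RA arrays, against 11.6, 17.4, 12.7 and 11.8 in the DMSO arrays, a difference of 3.21. In the other direction, Dr.608.1.A1_at was at least 8.39-fold lower and Dr.12811.1.A1_at at least 3.99-fold lower.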
